A study of Mus musculus with 14 samples.

Results

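Lag3, Havcr2, Tigit, Cd160 and Entpd1 are 5 receptors and surface enzymes that restrain T cells and are used as marks of T cell exhaustion. They were taken by gene symbol from the 32285 genes of the single-cell RNA tables, and all 5 were present. Their raw UMIs (counts of distinct captured RNA molecules) were followed in 7 libraries, each made from white nodules of 1 mouse lacking Eif3e in activated B cells (Eif3e fl/fl Cγ1Cre/+, C57BL/6J background). Cγ1Cre is driven from the Ighg1 locus and so acts in B cells after activation. Mice 29, 31, 32 and 34 also carried Rosa26-YFP fl/fl, and mice 27, 30 and 33 did not. The nodules came from liver (mouse 27, 12 months), lung (mouse 29, 12 months), liver (mouse 30, 14 months), spleen (mouse 31, 13 months), spleen (mouse 32, 12 months), thymus (mouse 33, 16 months), and lung and thymus (mouse 34, 9 months). The nodule of mouse 27 was a secondary tumor grown in a Rag2-/- recipient, a host with no T or B cells of its own but with its own NK and myeloid cells. Antigen receptor libraries from the same nodules covered B cell receptors in 5 mice (27, 29, 31, 33 and 34, BCR nodules) and T cell receptors in 2 mice (30 and 32, TCR nodules). There was no healthy tissue among these libraries, and with 1 library per mouse, which for mouse 34 covered both lung and thymus, the site and the mouse cannot be told apart.

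Repeated or prolonged stimulation through the antigen receptor leads T cells to express inhibitory receptors, and cells that carry several of them with reduced effector function are called exhausted; the same receptors also rise for a time in normally activated cells. Lag3 resembles Cd4 in structure and binds MHC class II. Havcr2 (TIM-3) is found on T cells and on myeloid cells and has galectin-9, Ceacam1, Hmgb1 and phosphatidylserine among its ligands. Tigit binds Pvr and other nectin family proteins and competes with the costimulatory receptor Cd226; it is common on follicular helper and regulatory T cells. Cd160 is anchored in the membrane by a lipid and binds Tnfrsf14 (HVEM); it is found on cytotoxic T cells and NK cells. Entpd1 (CD39) is an enzyme on the cell surface that degrades extracellular ATP, and Nt5e (CD73) turns the product into adenosine.

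Havcr2 and Entpd1 were the 2 members that were lower than in the other CD4 T cells in the expanded T cell clones of both TCR nodules, as described further on, and the bases before their annotated starts are shown here for that reason. The windows hold the 250 bases upstream of each start on the plus strand of GRCm38.p6, from RefSeq, written 5′ to 3′. Capitals mark matches, on either strand, to an AP-1 motif (TGANTCA), an NFAT core (GGAAAA) or an E-box (CANNTG). Entpd1 has 2 annotated starts, whose upstream windows lie at chr19:40612116-40612365 and chr19:40659520-40659769, and Havcr2 has 1, with its window at chr11:46454681-46454930.
Havcr2: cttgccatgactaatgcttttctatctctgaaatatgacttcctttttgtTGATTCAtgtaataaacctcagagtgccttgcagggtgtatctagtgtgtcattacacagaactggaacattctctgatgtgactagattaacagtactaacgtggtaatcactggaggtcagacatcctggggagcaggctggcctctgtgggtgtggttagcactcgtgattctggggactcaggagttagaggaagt
Entpd1, first start: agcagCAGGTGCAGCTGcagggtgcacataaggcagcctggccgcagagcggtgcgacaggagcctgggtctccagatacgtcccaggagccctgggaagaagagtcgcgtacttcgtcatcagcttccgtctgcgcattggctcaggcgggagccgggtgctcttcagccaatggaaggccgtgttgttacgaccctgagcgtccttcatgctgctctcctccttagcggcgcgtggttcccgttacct
Entpd1, second start: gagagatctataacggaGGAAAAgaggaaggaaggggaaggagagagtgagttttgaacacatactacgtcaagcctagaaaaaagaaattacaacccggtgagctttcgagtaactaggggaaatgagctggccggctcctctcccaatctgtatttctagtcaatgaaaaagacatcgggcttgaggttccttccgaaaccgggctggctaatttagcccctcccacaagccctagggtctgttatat
The Havcr2 window held 1 AP-1 match, the first Entpd1 window held 2 E-boxes side by side, and the second held 1 NFAT match. Over 32851 mouse promoter windows of the same length, 6.75% held an AP-1 match, 20.4% an NFAT match and 66.2% an E-box; no factor's binding was measured.

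Each library held 6864 to 14057 cells after filtering, and their median depth ran from 1364 UMIs (mouse 30) to 5319 UMIs (mouse 33). Pairs of libraries shared 78 to 278 cell barcodes. T-like cells were clusters carrying Cd3, Trac, Lat and other T cell markers, found with the 5 members left out of the clustering genes; they made up 6.11% of cells in mouse 27 and 88.8% in mouse 30. Within them, CD8 T cells had a Cd8a or Cd8b1 UMI and no Cd4 UMI (84 to 1267 cells per mouse), and conventional CD4 T cells had a Cd4 UMI, no Cd8 UMI and no Foxp3 UMI (146 to 805 cells in the BCR nodules). In the TCR nodules, the T clone comprised all cells carrying the most frequent TCR beta chain or its most frequent alpha partner (2107 cells in mouse 30 and 4868 in mouse 32). Of these, 16 and 395 lay outside T-like clusters. CD4 T cells with other receptors, taken from T-like clusters only, served for comparison (126 and 78 cells). Both groups hold only cells with a called receptor, which were 2503 and 5396 cells with RNA, against 9305 and 7772 T-like cells. T-like cells with a Cd4 UMI, no Cd8 UMI and no called receptor numbered 1147 and 566 and entered neither group. The clone of mouse 32 held 27708297 UMIs, of which 20154385 lay in T-like clusters. Myeloid marker RNA was 65.1 CPM in that whole clone and 10.5 CPM within T-like clusters, and B cell marker RNA was 45.2 and 55.6 CPM. A Cd4 UMI was seen in 31.99% and 50.99% of clone cells and a Cd8 UMI in 0.190% and 0.883%. No NK-like cluster was found, and cells with NK markers and no Cd3 outside B-like clusters numbered 2 to 28 per mouse. With B-like clusters counted, cells meeting the same rule numbered 3 to 726 per mouse, the most in mouse 31.

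All members except Entpd1 were at their highest mean level in a T cell population, and Havcr2 and Entpd1 were also high in myeloid cells. Levels are given as CPM, the UMIs of a gene scaled to all UMIs summed over a population in 1 mouse. In CD8 T cells, Lag3 lay between 43.9 and 667 CPM with a median of 173 (mean 227 ± 202, SD, n = 7 mice). Havcr2 lay between 128 and 726 CPM with a median of 167 (mean 267 ± 215, n = 7). For both genes mouse 27 was the highest by far, the next mouse standing at 220.5 CPM for Lag3 and 338 CPM for Havcr2. Tigit was the steadiest, from 251 to 543 CPM with a median of 307 (mean 347 ± 103, n = 7). Cd160 was detected at 15.8 to 55.4 CPM (median 43.6) and Entpd1 at 53.9 to 143 CPM (median 89.5). In a sum over cells, fewer expressing cells and less RNA per cell cannot be told apart, so the share of cells with a UMI was also taken.

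**Figure D1:**
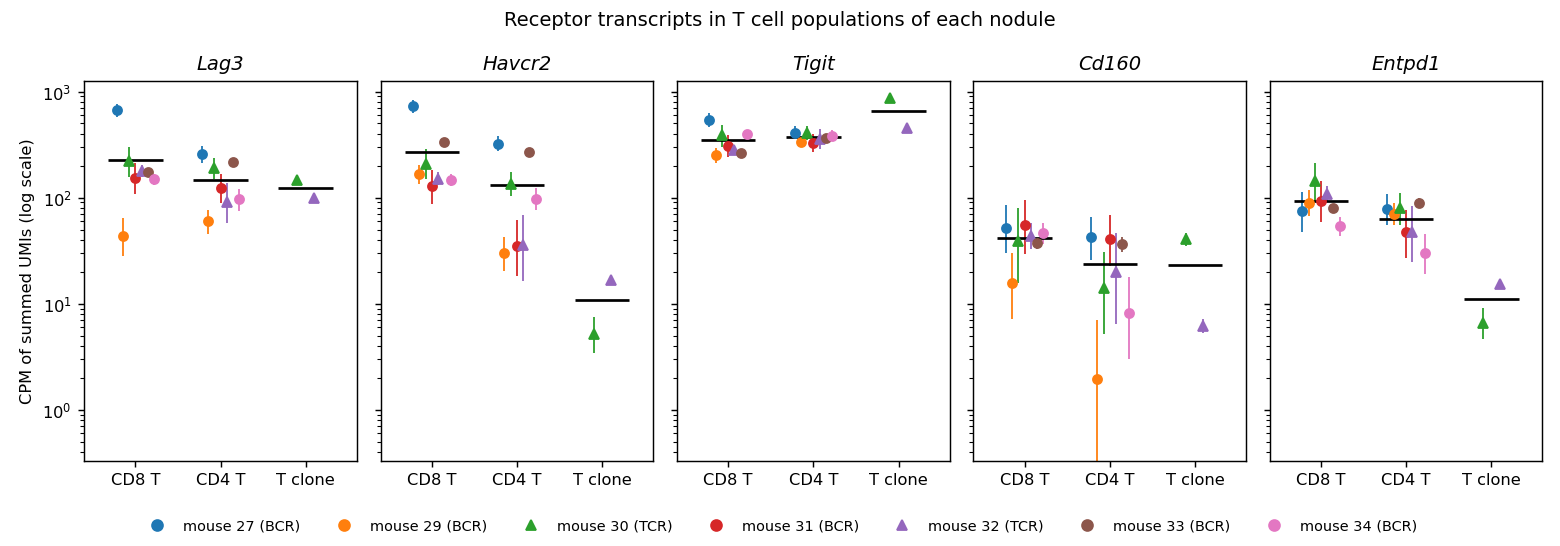
Level of each member (CPM of summed UMIs) in CD8 T cells, CD4 T cells and the T clone of each nodule; points are mice with 95% Poisson intervals, which cover counting error only, and lines are means over mice. CD4 T cells are conventional CD4 T cells in BCR nodules and CD4 T cells with other receptors in TCR nodules. Mouse 27 stands above the others for Lag3 and Havcr2 in CD8 T cells, and Havcr2 and Entpd1 are at or under 16.6 CPM in both T clones.

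To compare shares at equal depth, each cell was thinned to 1000 UMIs, which left out 151 of 2549 CD8 T cells. A Tigit UMI was then present in 21.4% to 41.2% of CD8 T cells (median 26.2%), Lag3 in 4.35% to 41.2% (median 15.9%) and Havcr2 in 7.14% to 43.9% (median 12.1%). Entpd1 was seen in a median of 8.33% and Cd160 in 3.98%. Without thinning the medians were 53.7% for Tigit, 34.1% for Lag3, 27.003% for Havcr2, 19.0% for Entpd1 and 8.79% for Cd160, at median depths of 1416.5 to 4650 UMIs. In B-like cells, taken as a background for the members apart from Entpd1, the thinned medians were 0.700% for Tigit, 0.157% for Lag3, 0.188% for Havcr2, 0.434% for Entpd1 and 0% for Cd160, at median depths of 2210 to 8611 UMIs (6 mice). In mouse 31 B-like cells held 65.8% of the nodule's Tigit UMIs, so their Tigit share there may not be background alone. The median share in CD8 T cells lay above that in B-like cells for every member, although for Entpd1 the ranges over mice met (up to 5.41% of B-like cells and down to 4.89% of CD8 T cells). Neutrophil-like cells gave thinned medians of 0.202% for Lag3, 2.66% for Tigit and 0% for Cd160, and of 2.56% for Havcr2 and 23.1% for Entpd1, at median depths of 1692 to 9290 UMIs (5 mice).

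**Figure D2:**
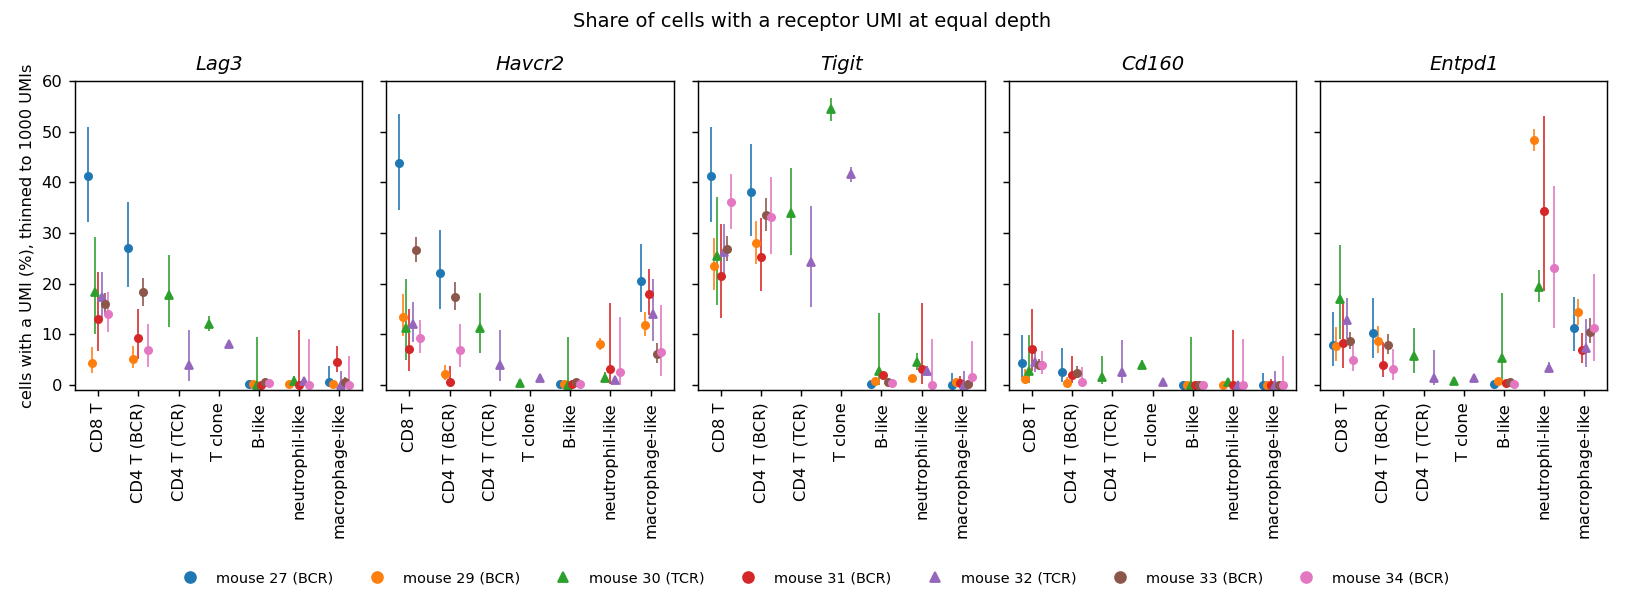
Percentage of cells with a UMI of each member after thinning every cell to 1000 UMIs, by population and mouse, with 95% Clopper-Pearson intervals that cover counting error only. Tigit is the member seen in the largest share of T clone cells (54.4% and 41.6%). B-like cells are shown as a background, which for Tigit in mouse 31 may not be background alone.

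Havcr2 separated CD8 from conventional CD4 T cells of the same nodule. The comparison asked whether the 2 T cell lineages of the BCR nodules carried the receptors to different degrees. In conventional CD4 T cells Havcr2 stood at 323, 29.9, 35.2, 271 and 97.6 CPM in mice 27, 29, 31, 33 and 34. CD8 T cells of the same mice had 726, 167, 128, 338 and 147 CPM. The CD8 value was higher in 5 of 5 mice, by 2.24, 5.58, 3.63, 1.25 and 1.502-fold, although the ranges of the 2 populations overlapped because mice 27 and 33 were high in both. With the mouse as a block, the log2 fold change was 1.15 ± 0.25 (SE), with an adjusted p of 0.0269 by edgeR's quasi-likelihood test with Benjamini-Hochberg adjustment. Of 8164 genes tested, 242 (2.96%) passed the threshold of 0.05 in either direction, and 1 of the 5 members did. The Havcr2 call did not hold without mouse 27 (adjusted p = 0.0527), without mouse 29 (0.0659) or without mouse 31 (0.0813), in a gate on Cd3 UMIs without clusters (0.0562) or without the mouse block (0.999), and its log2 fold change stayed between 0.88 and 3.13 over all alternatives.

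The other 4 members did not pass. Lag3 in conventional CD4 T cells was at 258, 59.8, 123, 218 and 96.2 CPM in mice 27, 29, 31, 33 and 34, and the log2 fold change of CD8 over CD4 was 0.42 ± 0.22 (edgeR adjusted p = 0.442). Lag3 was higher in CD8 T cells in mice 27, 31 and 34 and lower in mice 29 and 33. Tigit was nearly level, at 410, 335, 329, 368 and 384 CPM in conventional CD4 T cells, with a log2 fold change of -0.03 ± 0.14 (edgeR adjusted p = 0.9998). Cd160 stood at 42.3, 1.93, 41.1, 36.7 and 8.25 CPM in conventional CD4 T cells, and its log2 fold change was 0.80 ± 0.33 (edgeR adjusted p = 0.293). Entpd1 gave 0.36 ± 0.19 (edgeR adjusted p = 0.443). A part of the T-like cells with a Cd4 UMI and no Cd8 UMI lay in sub-clusters rich in CD8 T cells. The 4 sub-clusters concerned held 726, 304, 93 and 77 such cells. These were counted over all 7 nodules, with T clone cells and cells with a Foxp3 UMI included, and not in the BCR nodules alone. When CD8 T cells were restricted to those sub-clusters and CD4 T cells to the rest, an alternative chosen after seeing the data, the log2 fold changes were 3.13 for Havcr2 (edgeR adjusted p = 0.00111), 2.47 for Cd160 (0.00567) and 2.09 for Entpd1 (0.00839), and 1335 genes passed.

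**Figure D3:**
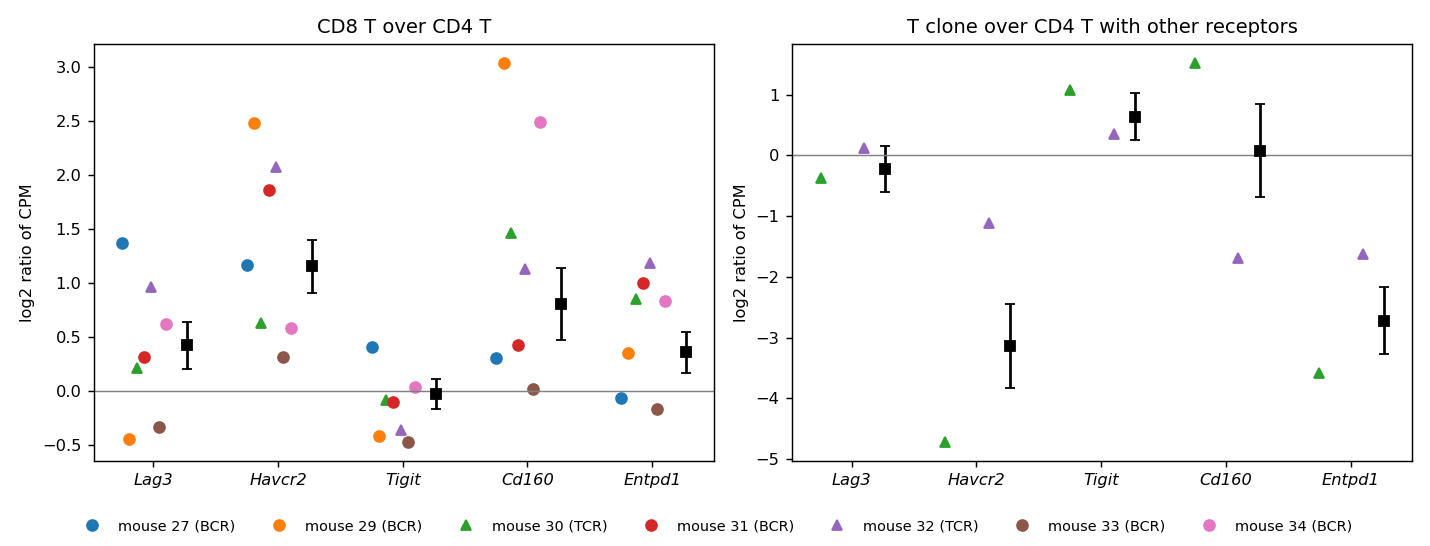
Log2 fold change of each member between T cell populations of the same mouse: CD8 over CD4 T cells on the left and the T clone over CD4 T cells with other receptors on the right. Coloured points are mice and black squares are the edgeR estimate ± SE; the left estimate uses BCR mice only. Havcr2 lies above 0 in every mouse on the left, and Havcr2 and Entpd1 lie below 0 in both mice on the right.

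Among the other genes of the pathway, Tbx21 (T-bet), a factor of type 1 effector cells, was higher in CD8 than in conventional CD4 T cells (log2 fold change 1.45 ± 0.26, edgeR adjusted p = 0.00875). Nr4a2, induced by antigen receptor signalling, was also higher (0.96 ± 0.21, 0.0279), and Tox2, a relative of Tox, was lower (-0.85 ± 0.19, 0.0324), so that 2 rose and 1 fell of 15 factors tested, with a list median of 0.18 against 0.0024 over all genes. Of 7 other inhibitory receptors tested out of 9 listed, only Ctla4 passed, and it was lower in CD8 T cells (-0.75 ± 0.16, edgeR adjusted p = 0.0284); the list median was -0.26. Of 8 ligands and partners tested out of 14, Lgals3 (galectin-3) rose (0.76 ± 0.17, edgeR adjusted p = 0.0278) and Nt5e, which acts after Entpd1 in adenosine formation, fell (-1.63 ± 0.38, 0.0399), with a list median of -0.05. B cell marker RNA in CD8 T cell sums was 0 to 166 CPM, against 937 to 2856 CPM in B-like cells, and myeloid marker RNA was 6.58 to 175 CPM, against 1341 to 23490 CPM in macrophage-like cells. With T cells holding such UMIs left out, the Havcr2 log2 fold change was 1.17 (edgeR adjusted p = 0.0314).

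In the T clones the members split: Tigit was high, whereas Havcr2 and Entpd1 were low. Tigit reached 864 CPM (95% Poisson interval 839.7 to 889) in the clone of mouse 30 and 456 CPM (448 to 464) in that of mouse 32. CD4 T cells with other receptors had 410 and 359 CPM, so the clone was 2.11-fold and 1.27-fold higher. A Tigit UMI was found in 54.4% and 41.6% of clone cells at 1000 UMIs, against 33.9% and 24.4% of the other CD4 T cells (76.6% and 81.7% against 62.7% and 50.0% without thinning). These values set clone cells of any cluster against T-like cells only. With the clone also kept to T-like clusters, the shares at 1000 UMIs were 54.6% and 44.2%. Cells assigned to the clone by a called receptor were 20.1% and 36.4% of all cells and held 48.0% and 77.7% of the nodule's Tigit UMIs. Such a share is not particular to Tigit, since the clones also held 38.2% and 78.9% of the Lag3 UMIs. T-like cells without a called receptor may or may not belong to the clone, so these shares do not give the clone's full size. All T-like cells together held 98.4% and 92.2% of the Tigit UMIs. The log2 fold change over the 2 mice was 0.64 ± 0.39, which did not pass (edgeR adjusted p = 0.958).

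Havcr2 in the clone was 5.16 CPM (3.43 to 7.46, 28 UMIs) in mouse 30 and 16.6 CPM (15.2 to 18.2) in mouse 32. The CD4 T cells with other receptors had 136 CPM (103 to 176) and 35.9 CPM (16.4 to 68.2), which made the clone 26.3-fold and 2.16-fold lower. The 2 mice differed in weight: in mouse 32 the comparison cells held 9 Havcr2 UMIs in 4 of 78 cells, and the share with a UMI was 5.13% against 5.07% of clone cells before thinning and 3.85% (0.800 to 10.8) against 1.32% (1.02 to 1.68) at 1000 UMIs. In mouse 30 the thinned shares were 11.3% (6.31 to 18.2) against 0.349% (0.141 to 0.718). CD8 T cells of the same nodules stood far above their clones, at 209 and 151 CPM. The log2 fold change of clone over other CD4 T cells was -3.13 ± 0.69, just outside the threshold (edgeR adjusted p = 0.0537; DESeq2 adjusted p = 0.0181).

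Entpd1 followed the same direction, at 6.64 CPM (4.65 to 9.19) and 15.5 CPM (14.1 to 17.0) in the clones. The comparison cells had 79.6 CPM (55.1 to 111) and 47.9 CPM (24.7 to 83.6), so the clone was 12.0-fold and 3.09-fold lower. The log2 fold change of -2.72 ± 0.55 passed (edgeR adjusted p = 0.0328), as 1 of 5 members against 66 of 11318 genes (0.583%). In mouse 32 the share of cells with an Entpd1 UMI was 1.28% in the comparison cells and 1.34% in the clone at 1000 UMIs, so the difference in CPM rested there on 12 UMIs in 4 cells. The call was lost when clone cells outside T-like clusters were left out (adjusted p = 0.0746), when cells with B or myeloid marker UMIs were left out (0.0790) and without the mouse block (0.9998), while the log2 fold change stayed between -2.88 and -2.34 over all alternatives. With 2 mice, a simulated 4-fold change (log2 of 2) was recovered in 20% of genes, and leaving out a mouse left no residual to test.

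Lag3 and Cd160 showed no common direction. Lag3 was 146 CPM in the clone and 190 CPM in other CD4 T cells of mouse 30, and 99.6 and 91.8 CPM in mouse 32 (log2 fold change -0.23 ± 0.38, edgeR adjusted p = 0.9997). Cd160 was 2.87-fold higher in the clone of mouse 30 (40.4 against 14.0 CPM, 6 UMIs in the latter) and 3.23-fold lower in that of mouse 32 (6.17 against 19.9 CPM, 5 UMIs in the latter). Of the 15 listed factors, only Eomes, a T-box factor of cytotoxic and memory T cells, passed: it had 2.40 and 0.866 CPM in the clones against 206 and 39.9 CPM in other CD4 T cells (log2 fold change -6.08 ± 0.52, edgeR adjusted p = 1.4e-05). The gate of these other CD4 T cells did not exclude Foxp3 UMIs. No alternative kept them to sub-clusters poor in CD8 T cells. How far cytotoxic-type cells among them raised the Havcr2 and Entpd1 levels that the clones were set against was not tested. None of the 7 other inhibitory receptors or 9 ligands and partners tested passed by edgeR. The list medians were -0.27, 0.20 and -0.13 for the 3 lists in this order, against 0.08 over all genes.

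Set against conventional CD4 T cells of the 5 BCR nodules, which are other animals, the clones again had less Havcr2 and Entpd1. The log2 fold changes were -3.87 ± 1.15 for Havcr2 (edgeR adjusted p = 0.435), -2.59 ± 0.56 for Entpd1 (0.186) and 0.76 ± 0.30 for Tigit (0.664). None of the 5 members passed, where 7 of 9297 genes (0.0753%) did; 600 genes had an unadjusted p under 0.05, Havcr2, Entpd1 and Tigit among them. DESeq2 called 161 genes here, with Havcr2 (adjusted p = 0.00333) and Entpd1 (5.7e-04) included. Every CPM value of Havcr2 and Entpd1 in the 5 BCR nodules lay above both clones (29.9 CPM and 30.2 CPM at the lowest). How many of the 9297 genes separated the 2 groups in this way was not counted, so this only describes the values. These clone sums are the same as in the comparison within the TCR nodules, so the 2 results are not separate evidence. No gene of the 3 lists passed in this comparison.

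No member passed between CD8 T cells of TCR and of BCR nodules. Havcr2 was 209 and 151 CPM in CD8 T cells of mice 30 and 32, inside the range of the 5 BCR nodules, with a log2 fold change of -0.78 ± 0.63 (edgeR adjusted p = 0.799). Entpd1 was 143 and 109 CPM, above the BCR nodules (53.9 to 93.8 CPM), with a log2 fold change of 0.65 ± 0.31 (edgeR adjusted p = 0.761). Lag3 gave -0.25 ± 0.74, Tigit -0.11 ± 0.35 and Cd160 0.07 ± 0.43. No gene of 7147 passed by edgeR (0%), with 461 at an unadjusted p under 0.05 and 9 called by DESeq2, and 66% of simulated 4-fold changes were recovered. Without mouse 27 the Lag3 estimate turned from -0.25 to 0.56.

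Regulatory T cells could not be compared as planned, since T-like cells with both a Cd4 and a Foxp3 UMI numbered 6 to 18 per mouse, and no Foxp3 UMI was seen in 574 T-like cells of mouse 27, which allows up to 0.523% of cells with a captured Foxp3 UMI at a median depth of 1354 UMIs and sets no limit on cells expressing the gene. With the Cd4 UMI no longer required, a gate set after seeing the data, mice 29, 31, 33 and 34 gave 75, 52, 17 and 36 cells. Havcr2 in these Foxp3+ cells was 56.2, 32.98, 65.8 and 21.9 CPM, from 6, 3, 5 and 3 UMIs, and its log2 fold change against conventional CD4 T cells was -1.18 ± 0.47 (edgeR adjusted p = 0.296). Tigit was 431, 517, 579 and 314 CPM (0.27 ± 0.20, edgeR adjusted p = 0.637). None of the 4 members tested passed, where 69 of 5151 genes did (1.34%; 635 at an unadjusted p under 0.05), and Cd160 was too low to test. Eomes (-3.24 ± 0.54, edgeR adjusted p = 0.0069) and Nr4a2 (-1.15 ± 0.27, 0.0472) were lower in Foxp3+ cells.

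Outside the T cells, the members divided into 2 patterns. Entpd1 was highest in neutrophil-like cells, from 31.8 to 714 CPM (mean 317 ± 237, n = 6 mice, highest in mouse 29), followed by macrophage-like cells (mean 110 ± 44.7 CPM, n = 7), CD8 T cells (92.0), endothelial-like cells (66.2) and CD4 T cells with other receptors (63.7). Neutrophil-like cells held 65.2% of all Entpd1 UMIs in the nodule of mouse 29, the most of the 7 nodules, and 0.804% in that of mouse 33, the least. Havcr2 was highest in CD8 T cells (267 CPM), then in macrophage-like cells (165 ± 76.5, n = 7), conventional CD4 T cells (151), other-receptor CD4 T cells (85.9) and neutrophil-like cells (54.6); macrophage-like cells held 63.9% of the Havcr2 UMIs in mouse 31. The ranges over mice of all these neighbours overlapped.

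Lag3, Tigit and Cd160 were largely T cell genes. For Tigit the order was the T clone (660 CPM), Foxp3+ cells (401), other-receptor CD4 T cells (384), conventional CD4 T cells (365) and CD8 T cells (347), each overlapping the next. The next population, neutrophil-like cells, followed at 15.6 CPM without overlap. For Lag3 the order was CD8 T cells (227), conventional CD4 T cells (151), other-receptor CD4 T cells (141), the T clone (123) and Foxp3+ cells (86.5), and macrophage-like cells had 10.8. T-like cells held 50.7% of the Lag3 UMIs in mouse 29 and 63.7% in mouse 31, against 71.2% to 97.7% in the other nodules. In mouse 31 macrophage-like cells held 27.8% of the Lag3 UMIs (69 of 248). For Cd160 it was CD8 T cells (41.3), conventional CD4 T cells (26.0), the T clone (23.3) and other-receptor CD4 T cells (17.0), each overlapping the next. Foxp3+ cells had 3.66 CPM, from 0 to 10.99, below the range of CD8 T cells and of other-receptor CD4 T cells but overlapping that of conventional CD4 T cells and the T clones. In the spleen nodule of mouse 31, B-like cells were 64.2% of cells and held 1172 of 1780 Tigit UMIs (65.8%), at 17.8 CPM. The B clone of that mouse had 17.2 CPM of Tigit, against 2.17 to 7.38 CPM in the other 4 B clones and 3.55 CPM in macrophage-like cells of the same nodule.

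**Figure D4:**
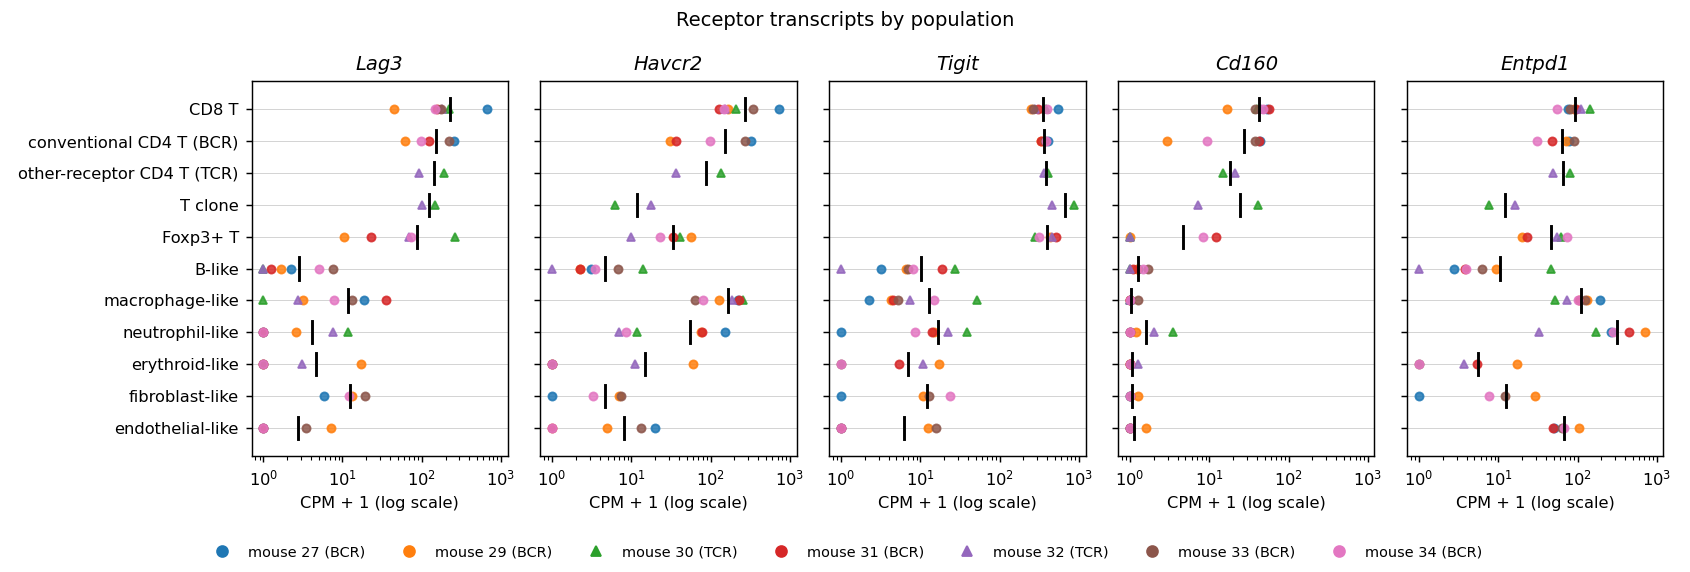
Level of each member (CPM + 1, log axis) in every population and mouse; points are mice and bars are means. Lag3, Tigit and Cd160 are highest in T cell populations, whereas Entpd1 peaks in neutrophil-like cells (mean 317 CPM) and Havcr2 is also high in macrophage-like cells (mean 165 CPM).

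The ligands were measured in the same sums. Lgals3, a ligand of Lag3, was highest in macrophage-like cells (mean 1341 CPM), and Lgals9, a ligand of Havcr2, was found at 90.6 CPM in macrophage-like and 85.3 CPM in endothelial-like cells. Of the Tigit ligands, Nectin2 was 81.2 CPM and Pvr 26.2 CPM in endothelial-like cells, and Nectin3 was 29.2 CPM in fibroblast-like cells. Ceacam1, a ligand of Havcr2, was 82.4 CPM in neutrophil-like cells. Nt5e was 82.7 CPM in the T clones and 23.6 CPM in CD8 T cells, the opposite order to Entpd1 (11.1 and 92.0 CPM).

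Within CD8 T cells a member was more frequent in cells holding certain other members, to a degree that depended on depth. At 1000 UMIs per cell, a Havcr2 UMI was present in a median of 18.2% of cells with a Lag3 UMI and 10.3% of cells without, higher with Lag3 in 7 of 7 mice (at 500 UMIs, in 4 of 4 mice with at least 10 cells on each side). In mouse 27 these shares were 68.1% and 26.9%, and in mouse 33, the nodule with the most CD8 T cells, 32.8% and 25.5%. Lag3 was seen in 22.2% of cells with Tigit and 13.5% without (7 of 7 mice), but at 500 UMIs it was higher with Tigit in only 4 of 7 mice (10.1% against 8.06%). Tigit was seen in 38.2% of cells with Havcr2 and 25.2% without (5 of 5 mice with at least 10 cells on each side); in mice 30 and 31, with fewer, it was in 2 of 8 and 0 of 6 cells with Havcr2. At 500 UMIs Tigit was higher with Havcr2 in only 2 of 5 mice (18.8% against 14.4%). Tigit was also more frequent with Tox, a factor tied to exhaustion, at 30.2% against 24.5% (7 of 7 mice, and 7 of 7 at 500 UMIs). With Pdcd1, Tigit was higher in 4 of 6 mice, and at 500 UMIs in 2 of 5 (13.0% against 14.9%). With Mki67, a proliferation gene, Tigit was higher in 1 of 4 mice (25.6% against 32.7%). Havcr2 and Lag3 were each higher with Pdcd1 in 5 of 6 mice (at 500 UMIs, in 5 of 5 and 2 of 5). Counts behind single mice were small, with 2 to 65 cells holding both Havcr2 and Lag3. Entpd1 was seen in 12.0% of cells with Havcr2 and 7.53% without (5 of 5 mice). At 500 UMIs it was higher with Havcr2 in only 3 of 5 mice (4.81% against 3.83%), and the mean difference over mice turned to -0.52 percentage points. Cd160 was too sparse for such pairs. These shares are descriptions, and cells of 1 mouse are not replicates.

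**Figure D5:**
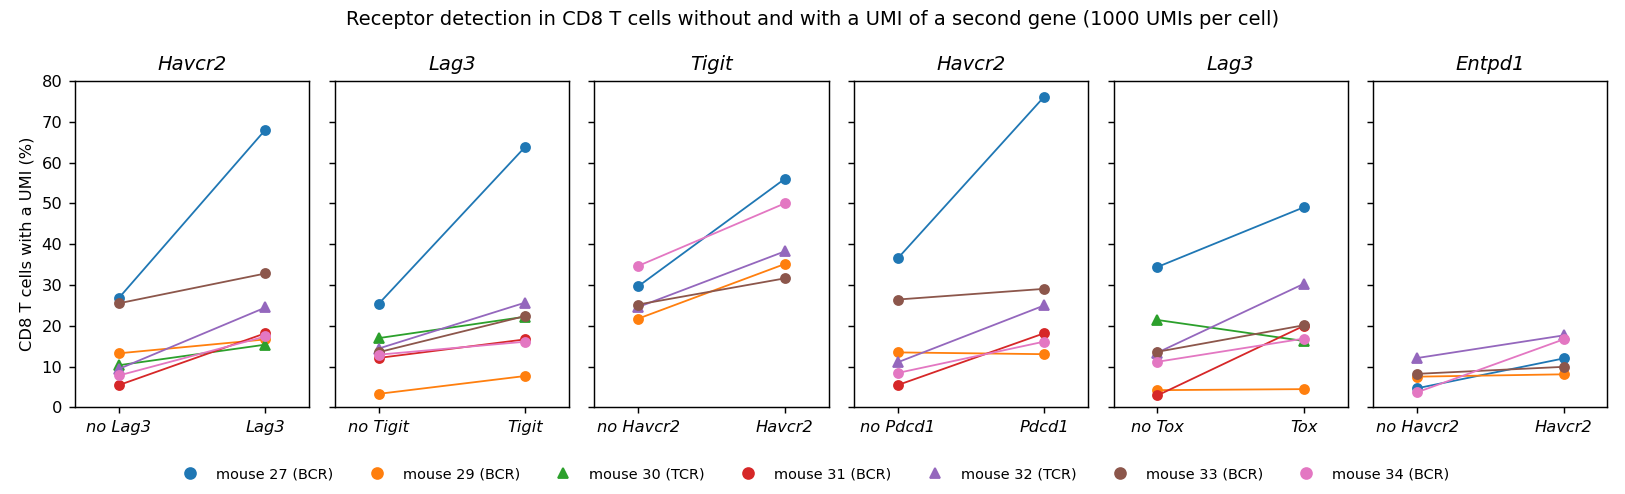
Percentage of CD8 T cells with a UMI of 1 gene among cells without and with a UMI of a second gene, after thinning to 1000 UMIs; each line is a mouse. Havcr2 was more frequent in cells with Lag3 in 7 of 7 mice, and so was Lag3 in cells with Tigit, the latter in only 4 of 7 mice at 500 UMIs.

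Members per cell were counted after thinning every cell to 1000 UMIs, with shallower cells left out. Cells with UMIs of 2 or more members were then 47.4% of CD8 T cells in mouse 27. In the other 6 mice they were 7.97% to 20.5%. Among conventional CD4 T cells they were 25.4% in mouse 27, 18.7% in mouse 33 and 3.31% to 6.88% in the other 3. In the T clones they were 9.88% and 5.28%, against 16.1% and 7.69% of CD4 T cells with other receptors. Cells with exactly 1 member were 51.5% and 41.9% of the T clones, against 33.1% and 20.5% of CD4 T cells with other receptors. Mouse 27, which was highest in both T cell types, is the nodule grown in a Rag2-/- recipient.

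Across 50 sums of UMIs per mouse and population, the genes whose levels most resembled Lag3, Tigit, Cd160 and Entpd1 were found by Pearson's r of log2(CPM + 10) over 12731 genes. Zap70 (r = 0.947), Cd27 (0.938) and Cxcr6 (0.933) were nearest to Lag3. Pdcd1 (0.970), which encodes PD-1, Cd3d (0.969) and Zap70 (0.966) were nearest to Tigit. Ctsw (0.946), Cd27 (0.940) and Cd7 (0.939) were nearest to Cd160. Ccl3 (0.826), Hgsnat (0.824) and Lilrb4a (0.804) were nearest to Entpd1. Among the members themselves r was 0.913 for Lag3 and Tigit, 0.911 for Lag3 and Cd160, 0.627 for Havcr2 and Entpd1, and 0.172 for Tigit and Entpd1. The sums share libraries and differ mainly by cell type, so these values describe which cells hold the RNA.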

How the data were processed

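White nodules of 7 mice were profiled by single-cell RNA sequencing with matched V(D)J libraries (14 libraries). The authors deposited raw UMI counts per gene and cell and lists of assembled receptor contigs; per the labels' processing notes the genome build was GRCm38 (mm10), and the aligner, annotation and cell calling are not given in the sources used here. The labels name a 5′ kit for V(D)J and the study's methods a 3′ kit for RNA, so the transcript end counted was not settled. The deposited cells already held at least 500 UMIs each; cells with at least 201 UMIs, 101 genes and at most 10% mitochondrial UMIs were kept. Total UMIs per library ran from 19264039 to 123456962. Poisson and Clopper-Pearson 95% intervals cover counting error only, and a count of 0 was given a limit of 3 counts.

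Cells were clustered with scanpy 1.11.5 (2000 variable genes without the members, 30 components, 15 neighbours, Leiden resolution 1), and clusters were named from at least 3 detected markers. No doublet caller was run; T cells with 2 or more B or myeloid marker UMIs were left out in an alternative. UMIs were summed per mouse and population (at least 20 cells; 10 for Foxp3+ cells) and tested with edgeR 4.0.16 (quasi-likelihood F-test, TMM factors, filterByExpr, Benjamini-Hochberg, threshold 0.05), with the mouse as a block where both populations came from the same mice. Their deviations correlated within each mouse at 0.347 to 0.701. DESeq2 1.42.0, RLE factors, no filter, other gates and clone definitions, and leaving out each mouse were alternatives. The edgeR script was tested on simulated data with 200 changed genes. For CD8 against conventional CD4 T cells it recovered 73% of simulated log2 changes of 1 and 98% of those of 2 (7909 genes). Genes of the 3 lists were named where they passed, at most 4 per list and comparison; for likeness, the 3 genes of highest r were named, and those of Havcr2 are not reported here. The members and lists were chosen with earlier results of these data known.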

Additional observations from a re-analysis of the deposited data

Results flagged for a closer look

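Levels of the 5 members were screened for single mice far from the rest in 28 groups of at least 4 mice (a gene in a population), in which chance marks about 1 in 20, and 5 values stood apart. Lag3 in CD8 T cells was 667 CPM in mouse 27 (205 UMIs), with the next mouse at 220.5 CPM. Havcr2 in CD8 T cells was 726 CPM in mouse 27 (223 UMIs), with the next mouse at 338 CPM. Lag3 in Foxp3+ cells was 260 CPM in mouse 30, from 13 UMIs, among the 5 mice with at least 20 such cells; mouse 33, with 17 cells and so not screened, had 276 CPM. Tigit in macrophage-like cells was 51.6 CPM in mouse 30, from 2 UMIs. Entpd1 in B-like cells was 45.7 CPM in mouse 30, from 7 UMIs in 43 cells.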

How the results depend on the processing

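In CD8 against conventional CD4 T cells, 242 genes and 1 member passed; 710 genes and 2 members passed with no filter on low counts, 99 genes and 0 members with T cells gated by Cd3 UMIs, and 1335 genes and 3 members with the sub-cluster gates chosen after seeing the data. Without the replicate block (the mouse), 6 genes and 0 members passed here, 0 genes and 0 members in the T clone comparison of the TCR nodules, and 2 genes in the Foxp3+ comparison. Leaving out 1 mouse gave 88 to 388 genes and 0 to 1 members in the first comparison. The Tigit estimate there turned to 0.0043 with no filter, 0.025 without the replicate block, 0.044 without mouse 29 and 0.072 without mouse 33 (-0.13 to 0.072 with 1 mouse left out). In the T clone comparison, 66 genes and 1 member became 199 genes and 2 members with no filter, 111 genes and 2 members with the Cd3 gate, 108 genes without cells holding B or myeloid UMIs, 186 genes and 2 members with the largest clonotype of the authors as the clone, 2 members with DESeq2 and 0 members with clone cells in T-like clusters only; Cd160 turned to -0.14 with DESeq2. For CD8 T cells of TCR against BCR nodules, DESeq2 called 9 genes, no filter gave 19, and leaving out 1 mouse gave 0 to 8; Lag3 turned to 0.56 and Tigit to 0.081 without mouse 27, Tigit to 0.030 and Cd160 to -0.17 without mouse 32, and Cd160 to -0.11 without mouse 29, the ranges with 1 mouse left out being -0.52 to 0.56, -0.27 to 0.081 and -0.17 to 0.16. For the T clones against conventional CD4 T cells of BCR nodules, the 7 genes became 161 (2 members) with DESeq2, 775 (2 members) with no filter, 1 with the Cd3 gate, 4 without cells holding B or myeloid UMIs, 11 with clone cells in T-like clusters only and 0 to 89 when 1 mouse was left out (89 without mouse 30); Cd160 turned to 0.0054 without mouse 27, 0.55 without mouse 32 and 0.011 without mouse 33 (-2.09 to 0.55 with 1 mouse left out). For Foxp3+ cells, no filter gave 257 genes and 1 member, and leaving out 1 mouse gave 34 to 61 genes and 0 to 1 members (Havcr2 without mouse 29). The cause of these shifts was not tested, except that the gates and left-out mice change the cells or samples used. Averaged over single cells, Tigit in conventional CD4 T cells was 435 CPM (365 CPM from sums). Thinned to 500 UMIs, the mean share of CD8 T cells was 16.4% for Tigit, 1.86% for Cd160 and 4.69% for Entpd1. Depth limits Cd160 most, which had 5 or 6 UMIs in the comparison cells of the TCR nodules.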
